A study of Mus musculus with 6 samples.

Results

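The 3 libraries described here were made from untreated eosinophils of the small intestine. The cells came from the lamina propria of wild-type BALB/c mice and spent 4 hours in culture with no cytokine added. They are 3 of the 6 libraries of the series, and the other 3, given GM-CSF at 10 ng/ml, were not used. The cells were cultured in triplicate per the design text, and nothing in the labels says that the cultures came from separate animals, so the spread between them may be technical. The sources do not say how the cells were purified, and no sample of fresh, uncultured cells was analysed here. The values are therefore those of cells after 4 hours in culture.

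Each library gives FPKM, a number of sequenced fragments scaled by transcript length and by library size, which allows levels of different genes to be compared. FPKM of transcripts were summed per gene symbol, and symbols with a transcript of at least 300 nt were kept, which left 22463 of 23283 symbols. At that limit, Tmsb15a of 299 nt was left out with FPKM of 0, 0 and 0.781, and Gm6268, Gm9513 and S100z of 300 nt were kept and listed at 0 in all cultures. The values rested on 0.939, 0.974 and 0.917 gigabases of mapped sequence, so that a gene of 2000 nt at 1 FPKM stood for 47.1 to 50.4 reads, by an approximate read length. Genes were ranked by mean FPKM over the 3 cultures. With 1 group there is no comparison between conditions and no test. Values are given for cultures 1, 2 and 3 in that order.

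Eosinophils are granulocytes that settle in the lamina propria of the healthy gut, where they live longer than in blood. They carry granules of basic proteins, sense chemoattractants such as eotaxins, make lipid mediators, and release cytokines and chemokines on activation. Granule protein genes are known to be transcribed mainly in bone marrow precursors.

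Of the 5 marker genes set for these cells, Ccl3 and Il1rn were among the highest genes of the libraries. Alox15, a lipoxygenase of arachidonic acid, was listed at 428, 447 and 507 FPKM, and its mean stood at rank 113. Ccr3, the eotaxin receptor, was listed at 267, 284 and 315 FPKM at rank 231. Siglec5, the name the files use for the gene of the eosinophil lectin Siglec-F, was listed at 171, 159 and 181 FPKM at rank 410. For scale, the gene at rank 1000 had a mean of 73.2 FPKM, and all 5 markers lay above that in every culture. Emr1, the gene of the F4/80 antigen, had 373, 345 and 386 FPKM, and Cebpe, a transcription factor of late granulocyte maturation, had 174, 190 and 214 FPKM. Gata1, the factor needed for the eosinophil lineage, lay lower, at 50.3, 51.9 and 52.5 FPKM, and Il5ra, the IL-5 receptor chain, at 23.3, 24.2 and 27.6 FPKM. In RefSeq (GRCm38.p6, the assembly that mm10 names) Siglec5 spans positions 43351341 to 43359475 of chromosome 7, Ccr3 124017825 to 124031692 of chromosome 9, and Il1rn 24336860 to 24351491 of chromosome 2.

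**Figure D1:**
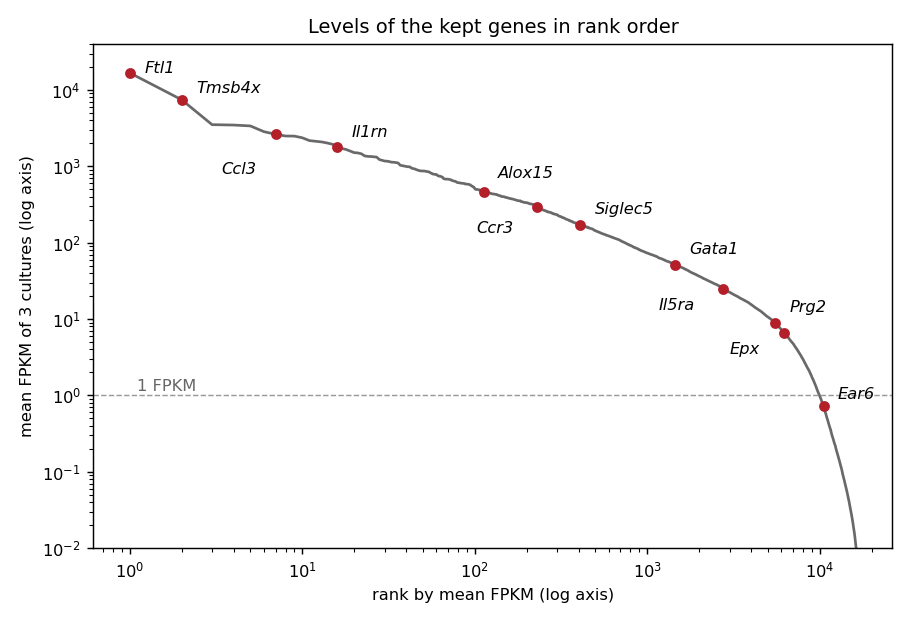
Mean FPKM of 3 cultures (vertical, log axis) against rank (horizontal, log axis) for genes at 0.01 FPKM or more, with 12 genes marked. Siglec5, Ccr3 and Alox15 lie between 170 and 461 FPKM, and the granule protein genes Prg2 and Epx lie under 10 FPKM.

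The granule proteins that define eosinophils under the microscope were low in the RNA. Prg2, major basic protein, was listed at 9.83, 7.27 and 9.45 FPKM, and Epx, eosinophil peroxidase, at 5.88, 6.99 and 6.98 FPKM. The ribonuclease genes Ear1, Ear2 and Ear6, which belong to a family of near-identical copies, had means of 0.613, 0.372 and 0.718 FPKM. Reads of such copies may have been divided among them. Of 15 matched genes in the granule list, 4 had a mean of 1 FPKM or more, and 2 of these made up 99.6% of its FPKM. One was Srgn, the proteoglycan core that packs granule cargo, at 3164, 3552 and 3424 FPKM. The other was Cd63, a tetraspanin of granule membranes, at 1064, 1053 and 981 FPKM. Both are used by many other blood cells.

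The RNA was spread over many genes with a steep top. A mean of 1 FPKM or more was reached by 9959 genes, and the separate cultures had 9918, 9948 and 10013 such genes (mean 9960 ± 48.6, SD, n = 3). At 10 FPKM or more there were 5203 genes, at 100 or more 741, and at 1000 or more 39. Another 5492 genes were listed at 0 in all 3 cultures. The highest gene held 3.96% ± 0.132 (SD, n = 3) of the summed FPKM, the 10 highest 11.2% ± 0.201, the 100 highest 31.4% ± 0.501 and the 1000 highest 67.9% ± 0.452. The upper 50% of the FPKM lay in 352 genes (344, 345 and 365 in the separate cultures). Coding transcripts held 97.3% ± 0.0594 (SD, n = 3) of it. The 100 highest genes were short: their longest transcripts had a median of 1162 nt, against 2672 nt for all genes at 1 FPKM or more. Ribosomal protein genes filled 17 of these 100 places and genes of the actin and cytoskeleton list 12.

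Ftl1, the light chain of the iron store ferritin, had the highest listed FPKM of the kept genes. It lies on chromosome 7 from 45457944 to 45459886 and was listed at 16977, 17158 and 16061 FPKM. Tmsb4x, which encodes thymosin beta 4, the small protein that holds free actin monomers, came next at 6741, 7705 and 7873 FPKM. Neither overlapped in range with the gene after it. Below them the steps became small. Of the 39 neighbouring pairs in the order of the 40 highest named genes, 33 had overlapping ranges over the cultures. Ranges alone do not resolve the order of such pairs. Some of them kept the same order within every culture, such as Tyrobp above Cd9, and some did not, such as Actb and S100a11. Pairs whose ranges did not overlap included Srgn and Pla2g7, Actg1 and Pfn1, and Tpt1 and Fxyd5. The predicted gene Gm1821, named here after its values were seen, held rank 9 at 2449, 2548 and 2465 FPKM. It and Gm20594 at rank 22 were passed over in the order of named genes.

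**Figure D2:**
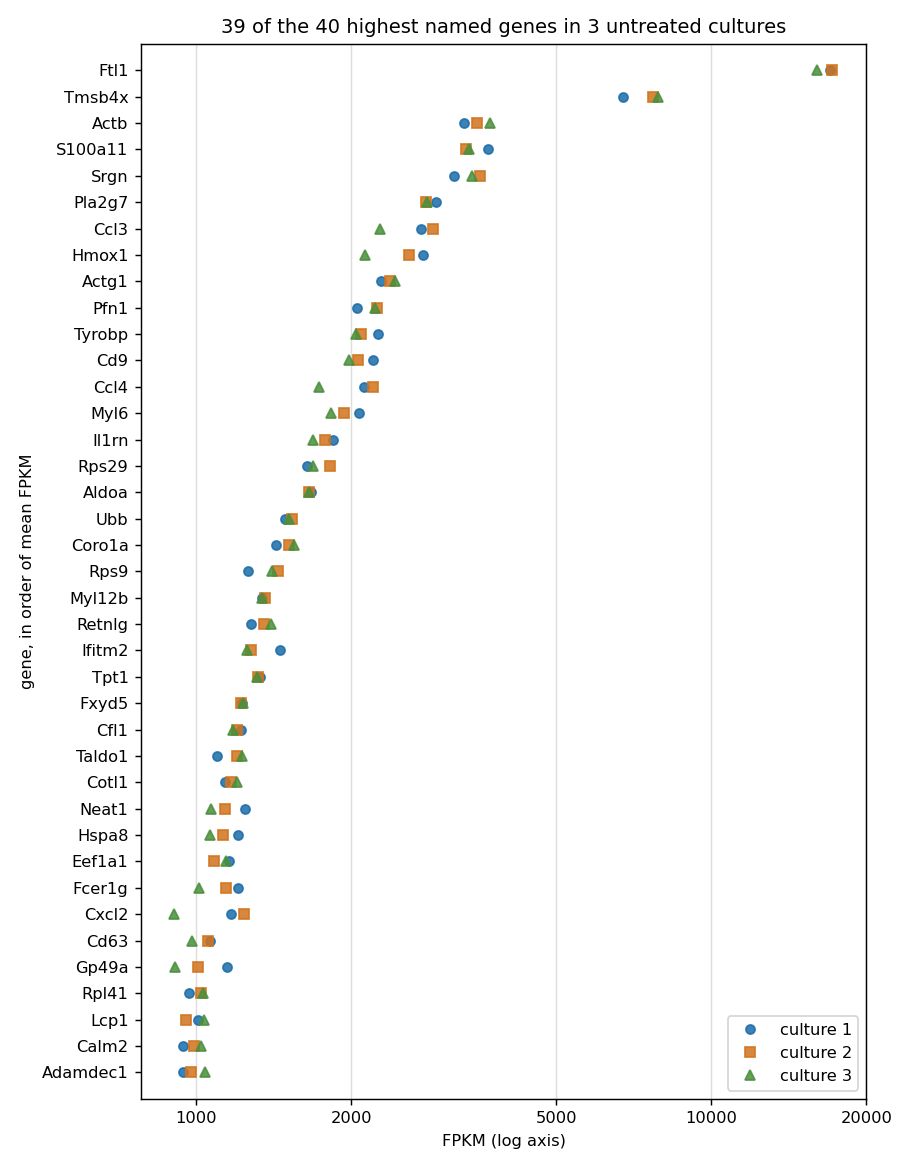
FPKM (horizontal, log axis) of 39 of the 40 highest named genes (vertical, ordered by mean) in each of the 3 cultures. Ftl1 stands apart between 16061 and 17158 FPKM. The triangles of culture 3 lie lowest for genes such as Ccl3, Ccl4, Cxcl2, Hmox1, Gp49a and Fcer1g. Of all 40 genes, 18 (45%) were lowest in culture 3, beside 28.1% of all 5203 genes at 10 FPKM or more.

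Iron handling held 4.97%, 4.94% and 4.60% of the FPKM, and Ftl1 alone made up 81.9% of it. As a share of bases the list held 2.70% in place of 4.84%. Hmox1, heme oxygenase, which frees iron from heme and is a known stress gene, was at 2760, 2593 and 2129 FPKM. Culture 3 was the lowest, and the highest culture was 1.30 times the lowest. Slc40a1, the iron exporter ferroportin, was at 813, 761 and 772 FPKM. Tfrc, the transferrin receptor, had 8.61, 9.06 and 9.46 FPKM. Fth1, the ferritin heavy chain, was listed at only 7.70, 6.65 and 6.37 FPKM. Tfrc and Fth1 were picked after their values were seen. Fth1 belongs to the genes with processed copies discussed with the spread of the values, and its listed level was not taken as a level of the transcript. The list's share and the part of Ftl1 in it were computed with that listed value, and the top rank of Ftl1 also rests on it.

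Actin and its regulators formed the largest list by the listed values, with 7.37%, 7.67% and 7.88% of the FPKM. All 47 of its members had a mean of 1 FPKM or more. Behind Tmsb4x came the actins Actb, at 3312, 3509 and 3718 FPKM, and Actg1, at 2288, 2374 and 2436 FPKM. Both were lowest in culture 1 and highest in culture 3. Pfn1, profilin, which loads actin monomers for assembly, had 2050, 2244 and 2223 FPKM. Coro1a and Lcp1, leukocyte proteins that bind actin filaments, had 1426, 1514 and 1551 and 1008, 954 and 1036 FPKM. Cfl1, cofilin, which severs filaments, had 1223, 1200 and 1177 FPKM. The myosin light chains Myl6 and Myl12b had means of 1943 ± 119 and 1348 ± 9.48 FPKM (SD, n = 3). Of the list's 45 members at 10 FPKM or more, 28 were highest in culture 3, which is 62.2%, beside 44.1% of all 5203 genes at that level.

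Chemokine RNA was dominated by 4 genes that attract phagocytes and neutrophils. Ccl3 and Ccl4, attractants of monocytes and other phagocytes, were at 2735, 2885 and 2279 and at 2115, 2205 and 1728 FPKM. Cxcl2 and Cxcl3, neutrophil attractants that act on Cxcr2, were at 1169, 1237 and 906 and at 872, 910 and 767 FPKM (Cxcl3 was named after its values were seen). In all 4, culture 2 was highest and culture 3 lowest. The highest culture was 1.27 times the lowest for Ccl3, 1.28 times for Ccl4 and 1.36 times for Cxcl2, which had the highest CV of the 40 highest genes, 15.8%. Together these genes held 97.3% ± 0.461 (SD, n = 3) of the FPKM of the chemokine list, which held 1.61% of all FPKM, or 0.648% as a share of bases. Only 11 of its 34 members had a mean of 1 FPKM or more. Ccl6, a chemokine of myeloid cells and the next in level, had 72.4, 84.9 and 94.9 FPKM, while Ccl2, Ccl12, Ccl19, Ccl20 and Cxcl13 were listed at 0 in all cultures (named after their values were seen). Ccl3 and Ccl4 overlap in RefSeq on chromosome 11, where Ccl3 spans 83647843 to 83649378 and a Ccl4 model 83648624 to 83664683. Reads in the shared stretch cannot be given to one of them without strand. The libraries were stranded per the labels' protocols, but the sources do not say whether strand was used for the values.

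The bases before the start are shown for Cxcl2 and Cxcl3. S100a11, an abundant gene of another list, is shown for contrast. Each has a single listed start. The genes were chosen by hand, and a link between their letters and the order of the cultures was not tested. The sequences are those of RefSeq (GRCm38.p6), 80 bases before the start on the gene's own strand, 5′ to 3′. Capitals mark TATAAA beginning 20 to 40 bases before the start, the NF-kB type motif (GGG, any 2 bases, then TTTCC), or the GC box GGGCGG, the last 2 on either strand.
Cxcl3 (chr5:90786021-90786100): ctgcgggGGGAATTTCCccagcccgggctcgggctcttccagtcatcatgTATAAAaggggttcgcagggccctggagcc
Cxcl2 (chr5:90903819-90903898): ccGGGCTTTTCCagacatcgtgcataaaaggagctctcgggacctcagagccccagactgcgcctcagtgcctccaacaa
S100a11 (chr3:93520416-93520495): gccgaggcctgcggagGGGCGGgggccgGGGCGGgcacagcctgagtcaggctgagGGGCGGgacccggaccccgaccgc
Cxcl3 and Cxcl2, neighbours on chromosome 5, each hold the NF-kB type motif, beginning 73 and 78 bases before the start, and Cxcl3 also holds TATAAA, 30 bases before it. S100a11, which encodes a calcium-binding S100 protein and was listed at 3689, 3343 and 3384 FPKM, holds 3 GC boxes in the window. A match is a description of letters and not a site of binding.

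The same motifs were counted over all promoters, the NF-kB type motif and the GC box in 250 bases before the start. A single start was listed for 62 of the 100 highest genes and for 6419 of the 9959 genes at 1 FPKM or more. TATAAA in the window of 20 to 40 bases was found in 6 of the 62 (9.68%), in 1.29% of the 6419 and in 4.48% of 8339 promoters of genes under 1 FPKM. The NF-kB type motif was found in 5 of the 62 (8.06%), in 1.45% of the 6419 and in 1.20% of the 8339. The GC box was about as frequent in both, 58.1% and 60.9%, and was found in 29.0% of the 8339. Of the 7 chemokine genes at 10 FPKM or more, 5 had a single start, 2 of them with TATAAA and 2 with the NF-kB type motif. The shares over 62 promoters rest on 5 or 6 genes each.

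The list of IL-1 family and inflammasome genes held 0.986% ± 0.0237 (SD, n = 3) of the FPKM. Txnip, which is not of the IL-1 family, is counted in that share. Il1rn, the receptor antagonist that blocks IL-1, led with 1844, 1777 and 1687 FPKM at rank 16. Its value is a sum over several transcripts, and the highest single transcript had a mean of 717 FPKM. Il1b, which encodes the inflammatory cytokine IL-1 beta, was at 969, 966 and 910 FPKM, below Il1rn in every culture, and Il1a at 417, 415 and 392 FPKM (the latter picked after its values were seen). Txnip, an inhibitor of thioredoxin with a known link to the inflammasome, had 616, 629 and 705 FPKM. Nlrp3, a sensor of that complex, had a mean of 0.45 FPKM, and Il18 and Il33 had means of 0 and 0.0112 FPKM (picked after their values were seen). Among other cytokines, Csf1, the macrophage growth factor, had 936, 839 and 831 FPKM and made up 57.6% of its list. Il4, the type 2 cytokine, had 219, 214 and 164 FPKM, and the highest culture was 1.34 times the lowest. Tgfb1 had 114, 118 and 126 FPKM. Of the 55 genes in this list 19 reached 1 FPKM in the mean.

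Receptor genes for growth factors and chemoattractants were well represented. Csf2rb, the beta chain shared by the receptors for GM-CSF, IL-3 and IL-5, had 639, 577 and 585 FPKM, and Csf2ra, the GM-CSF binding chain, had 344, 340 and 314 FPKM. Csf2rb2, a close copy of Csf2rb that serves IL-3, had 248, 226 and 229 FPKM, and reads may have been divided between the copies. Both beta chain genes and Csf2ra had higher means than Il5ra, whose mean was 25.1 FPKM. Cxcr4, the receptor for the stromal chemokine Cxcl12, had 617, 593 and 588 FPKM. Ptafr, the receptor for platelet-activating factor, had 419, 395 and 427 FPKM. Both lay above Ccr3 in all 3 cultures. Of 34 matched genes in the list of chemoattractant receptors, 21 had a mean of 1 FPKM or more, and Cxcr4 and Ptafr held 57.6% of its FPKM.

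Lipid mediator genes held 1.06% ± 0.0152 (SD, n = 3) of the FPKM. Pla2g7, the secreted hydrolase that inactivates platelet-activating factor, had 2926, 2795 and 2802 FPKM at rank 6 and made up 63.6% of the list. Alox15 followed with a mean of 461 ± 41.0 FPKM (SD, n = 3). Alox5ap, the protein that presents arachidonic acid to 5-lipoxygenase for leukotriene synthesis, had 391, 387 and 410 FPKM. Of 26 genes, 19 had a mean of 1 FPKM or more and 6 had 100 or more.

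Several adaptors and surface proteins of innate cells were among the 40 highest genes. Tyrobp, the signalling adaptor DAP12, had 2251, 2091 and 2044 FPKM, and Fcer1g, the Fc receptor gamma chain, had 1203, 1140 and 1014 FPKM, 57.3% of the Fc and complement receptor list. In that list 10 of 19 genes had a mean under 1 FPKM, and the median was 0.897 FPKM. The Fc receptor genes Fcgr3 and Fcgr2b had means of 437 and 297 FPKM. Cd9, a tetraspanin, had 2208, 2063 and 1980 FPKM. Gp49a and Lilrb4, genes of the gp49 immunoglobulin-like receptors that are close copies of each other, had 1146, 1006 and 908 and 904, 797 and 739 FPKM. Their sum was 2050, 1804 and 1647 FPKM, with culture 1 highest and culture 3 lowest as for each gene. Cd300lf and Slc3a2, an inhibitory lipid receptor and the heavy chain of amino acid transporters, had means of 681 and 680 FPKM and the same order of cultures. The integrin gene Itgam had 583, 538 and 566 FPKM. In the antigen presentation lists, B2m, the light chain of class I molecules, had 921, 918 and 928 FPKM. Cd74, the invariant chain of class II presentation, had a mean of 62.6 FPKM at rank 1185. Of the co-stimulation genes, Cd80, a ligand of CD28, had 214, 182 and 164 FPKM, and Cd274, the inhibitory ligand PD-L1, had 184, 171 and 154 FPKM.

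Ribosomal protein genes held 7.08%, 7.37% and 7.25% of the FPKM, the second largest share of the lists, and 72 of 86 had a mean of 100 FPKM or more. The share was computed with the listed values, also for 4 genes under 1 FPKM. Their listed values may not be levels, so the order of this list and the actin list is not secure. Their transcripts are short, and as a share of bases (FPKM times length) they held 2.33%, less than the 2.70% of iron handling. Rps29, Rps9 and Rpl41 led them with means of 1713, 1369 and 1007 FPKM. Translation factors held 1.56% ± 0.0235 (SD, n = 3), led by Tpt1, which binds the elongation machinery, and Eef1a1, an elongation factor, with means of 1321 and 1129 FPKM. All 40 of them had a mean of 10 FPKM or more. The respiratory chain held 1.66% ± 0.0201, or 0.601% as a share of bases, and its highest gene, Cox6b1, made up 4.86% of the list. Glycolysis held 1.07% ± 0.0177, and Aldoa, aldolase, at 1668, 1654 and 1655 FPKM, made up 36.7% of it. Aldoa is a sum over transcripts of which the highest had a mean of 820 FPKM. Taldo1, transaldolase of the pentose phosphate pathway, had 1097, 1199 and 1226 FPKM. Ubb, a ubiquitin gene, had 1485, 1532 and 1515 FPKM, and 43 of 44 genes in the proteasome and ubiquitin list had a mean of 1 FPKM or more.

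**Figure D3:**
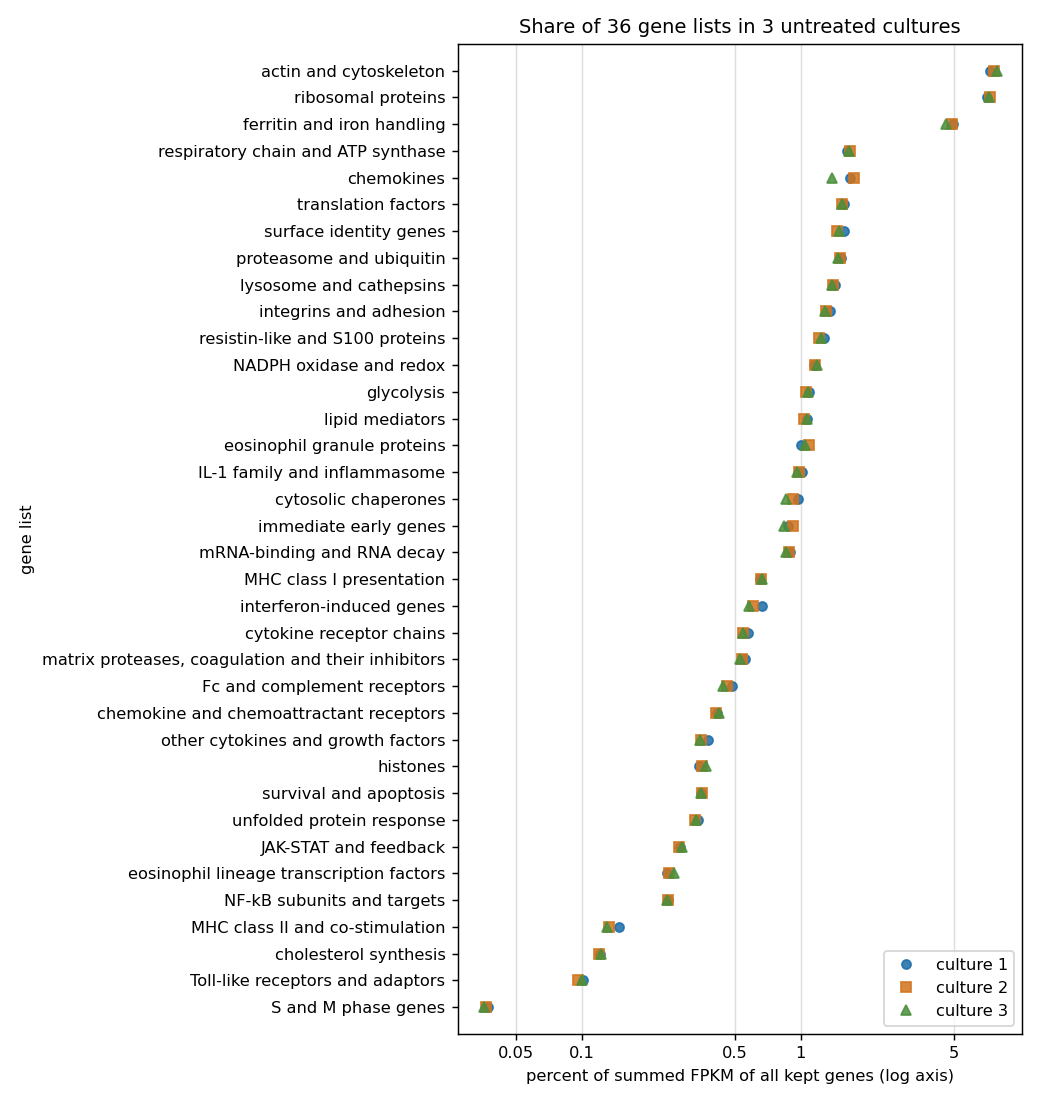
Percent of the summed FPKM of all kept genes (horizontal, log axis) for 36 gene lists (vertical, ordered by mean), with 1 symbol per culture. Actin and cytoskeleton genes lead with 7.37% to 7.88%, and the chemokine symbols of culture 3 (1.39%) lie apart from those of cultures 1 and 2 (1.68% and 1.75%).

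The NADPH oxidase, which makes superoxide in phagocytes, was well covered. Cyba, the small membrane subunit, had 744, 737 and 750 FPKM, and the cytosolic subunits Ncf1 and Ncf4 had means of 537 and 402 FPKM. Of 24 genes in the redox list 17 had a mean of 100 FPKM or more. Lysosomal genes held 1.41% ± 0.0246 (SD, n = 3), led by Laptm5, a lysosomal membrane protein of blood cells, at a mean of 902 FPKM. Cstb, cystatin B, an inhibitor of cathepsins, had 804, 724 and 637 FPKM. In the protease list Plaur, the urokinase receptor, had 710, 716 and 617 FPKM and Adam8, a membrane protease of granulocytes, had 627, 572 and 529 FPKM. Serpinb2, an inhibitor of urokinase, had 246, 237 and 254 FPKM. Adamdec1, a secreted metalloprotease of the gut, had 941, 976 and 1039 FPKM at rank 42.

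Early response genes were present after the 4 hours without cytokine. Of 36 in the list 35 had a mean of 1 FPKM or more. Rgs1, a brake on chemoattractant receptor signalling, had 679, 683 and 555 FPKM. Zfp36, which directs the decay of cytokine mRNA, had 420, 451 and 417 FPKM, and Rgs2, a relative of Rgs1, had 210, 229 and 259 FPKM. Birc3, an NF-kB target that inhibits apoptosis, led its list at 195, 183 and 192 FPKM. Interferon-induced genes held 0.615% ± 0.0450 (SD, n = 3), or 0.223% as a share of bases, and 87.2% of that was Ifitm2, at 1457, 1280 and 1256 FPKM, and Ifitm1, at 1009, 937 and 852 FPKM, antiviral membrane proteins that are close copies of each other. The median of the list was 5.23 FPKM. Toll-like receptors and their adaptors held 0.0991% of the FPKM, with a median of 8.62 FPKM and no gene at 100 FPKM or more. Irak2 and Myd88, signalling proteins below these receptors, led at means of 93.1 and 76.1 FPKM.

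Survival genes were led by Mcl1, an anti-apoptotic relative of Bcl2, at 260, 266 and 266 FPKM. Pmaip1, a BH3-only protein that binds Mcl1, had 174, 194 and 184 FPKM. The list's share of 0.352% had the lowest CV of the 37 lists, 0.624%. Ptpn6, the phosphatase SHP-1 that damps cytokine receptors, was at 493, 485 and 516 FPKM and made up 42.0% of the JAK-STAT list. Among the lineage transcription factors, Sfpi1, the gene of PU.1, led at 315, 313 and 336 FPKM, with Cebpe and Cebpb at means of 193 and 142 FPKM. Division genes were low: the S and M phase list held 0.0364% of the FPKM, of which 57.0% was Pcna, the replication clamp that also serves DNA repair, at a mean of 87.7 FPKM. The long noncoding RNA Neat1, the scaffold of paraspeckles, was at 1246, 1139 and 1070 FPKM at rank 32.

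The libraries held some RNA known from other cells. In bulk RNA, few cells of a type, little RNA per cell and expression by the eosinophils themselves cannot be told apart. Of 12 matched neutrophil markers 7 had a mean of 1 FPKM or more, and their summed level was 1387 to 1502 FPKM. Retnlg, a resistin-like protein known from neutrophils, made up 92.6% of it at 1279, 1354 and 1399 FPKM. The other neutrophil markers were far lower: S100a9 had a mean of 48.2 FPKM, S100a8 15.1 and Csf3r, the G-CSF receptor, 4.57 FPKM, and Elane and Camp were listed at 0 in all cultures. In the mast cell and basophil list, 5 of 14 genes had a mean of 1 FPKM or more, and the summed level was 228 to 311 FPKM. Hdc, the enzyme that makes histamine, made up 92.0% of it, at 285, 251 and 213 FPKM, while Cpa3 and Mcpt4 had means of 0.252 and 0.178 FPKM and Cma1, Mcpt8, Prss34 and Tpsb2 were listed at 0. Mcpt1, a mucosal mast cell protease, had 9.47 and 7.43 FPKM in cultures 1 and 2 and 0.951 FPKM in culture 3. In the macrophage and dendritic cell list 6 of 16 genes had a mean of 1 FPKM or more, and the summed level was 577 to 620 FPKM. Itgax, the integrin CD11c, led at 465, 441 and 443 FPKM, and Cd68, a lysosomal protein of phagocytes, followed at 101, 87.8 and 91.4 FPKM. Together they held 90.8% of the list. Apoe, Lyz2 and Csf1r had means of 21.7, 17.6 and 12.98 FPKM, and the complement genes C1qa, C1qb and C1qc had means of 0.2498, 0.332 and 0.297 FPKM.

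Markers of the gut wall were also present. Of 20 epithelial markers 15 had a mean of 1 FPKM or more, and the summed level was 260 to 289 FPKM. Olfm4, known from intestinal stem cells and from some neutrophils, made up 63.7% of it at 191, 159 and 180 FPKM. The keratin genes Krt18 and Krt8 had means of 34.5 and 19.5 FPKM, and Epcam, the epithelial adhesion molecule, had 11.8. Of 12 T cell markers 9 had a mean of 1 FPKM or more. Their summed level was 33.9 to 35.4 FPKM, with Cd3g at 11.1. The B and plasma cell list had 6 of 10 genes at 1 FPKM or more and summed to 32.6 to 40.1 FPKM, led by Cd79a at 9.92. The innate lymphoid list had 2 of 10 and summed to 6.64 to 8.73 FPKM, with Gzma at 5.02. In the stroma and endothelium list, Pecam1, which leukocytes also express, had a mean of 155 FPKM and Acta2, smooth muscle actin, 24.2 FPKM, while the collagen genes Col1a1, Col1a2 and Col3a1 stayed under 0.1 FPKM. The list summed to 178 to 193 FPKM. None of 6 erythroid genes reached 1 FPKM in the mean, and their sum lay between 0.0817 and 2.62 FPKM. The part of other cells in the levels described here was not tested. Xist, the RNA of the inactive X chromosome, was listed at 18.5, 19.1 and 18.8 FPKM and the Y-linked Ddx3y at 0.517, 0.645 and 0.664 FPKM.

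**Figure D4:**
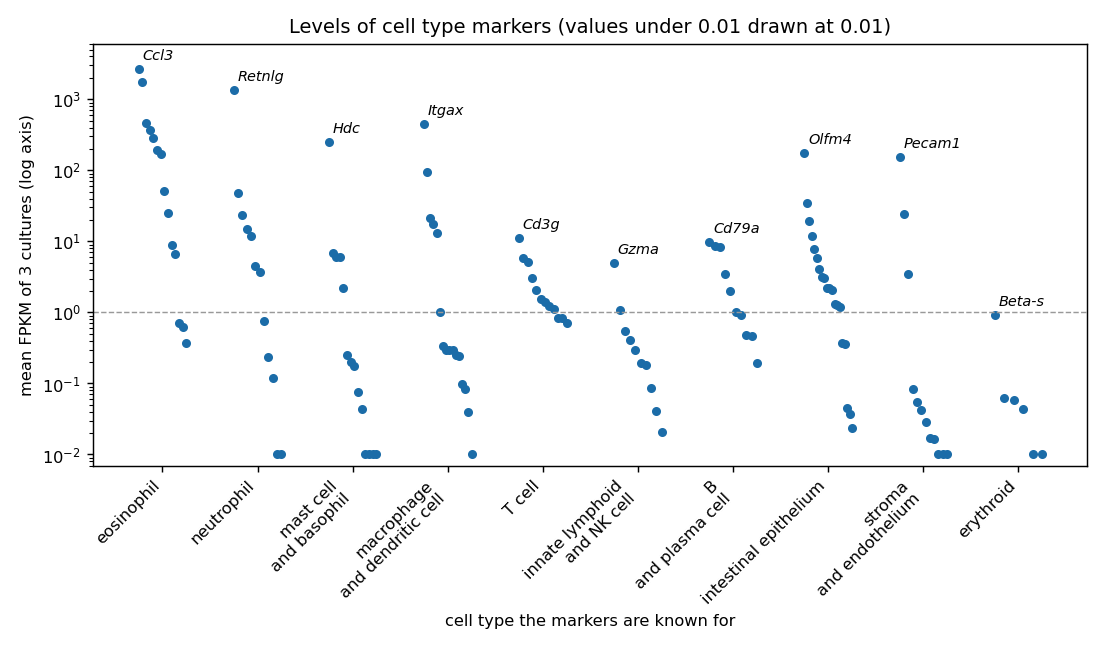
Mean FPKM (vertical, log axis) of each marker gene, grouped by the cell type it is known for (horizontal), with the highest gene of each type named. In the neutrophil, mast cell, epithelial and stromal lists 1 gene lies far above the rest (Retnlg, Hdc, Olfm4 and Pecam1). Of 14 eosinophil markers 7 lie at 100 FPKM or more, and Ccl3 and Il1rn hold 73.7% of the FPKM of that list. The lists were set with earlier results of these data known, so the contrast is no test of cell identity.

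The 3 cultures were alike. Across the 9959 genes at 1 FPKM or more, Pearson's r on log2(FPKM + 1) was 0.99196 between cultures 1 and 2, 0.992 between 1 and 3, and 0.993 between 2 and 3. Genes are not independent replicates, so these values are descriptions. All 3 cultures had 96 of their 100 highest genes and 46 of their 50 highest in common. Among the 5203 genes at 10 FPKM or more the median CV (SD over mean, n = 3) was 5.07%, and 88.6% of them had a CV under 10%. Counting alone, from the approximate number of reads behind each value, would give a median CV of 2.38%. The median CV was 10.1% for genes of 1 to 10 FPKM, 5.24% for 10 to 100, 4.08% for 100 to 1000 and 5.11% for 39 genes above that, where counting alone gives 0.485%. As a ratio of the 2 medians, observed over counting spread was largest for the most abundant genes. Genes under 1000 nt had a median CV of 6.60%, longer ones 4.93%.

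**Figure D5:**
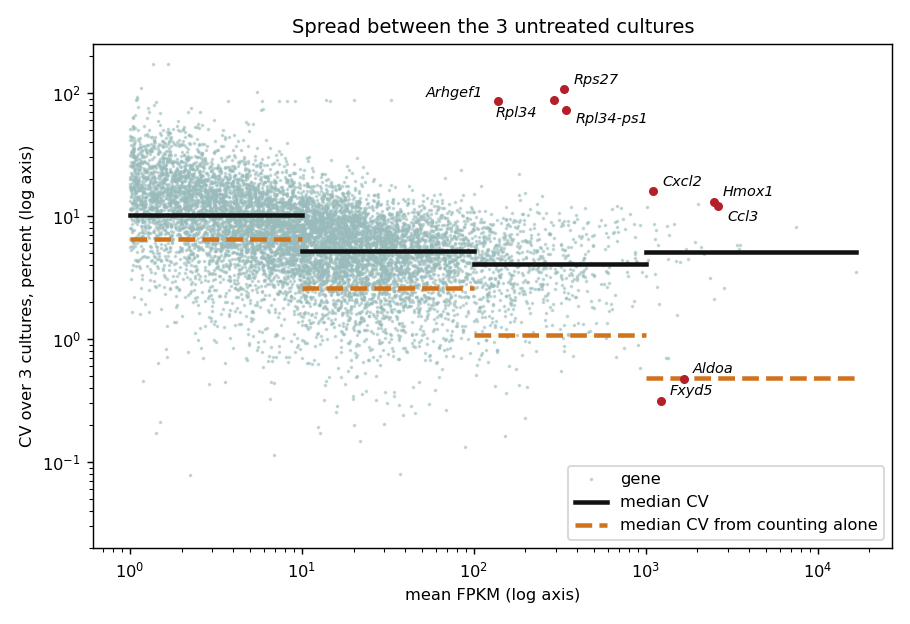
CV over the 3 cultures (vertical, log axis) against mean FPKM (horizontal, log axis) for genes at 1 FPKM or more, with medians of observed CV (solid) and of the CV from counting alone (dashed) in 4 ranges of level. Cxcl2, Hmox1 and Ccl3 lie above the median of their range, and Rps27, Rpl34, Rpl34-ps1 and Arhgef1 lie near the top of the plot.

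Some gene groups shared an order of the cultures. Of the 5203 genes at 10 FPKM or more, 28.1% were lowest in culture 3, and 44.1% were highest there. Among 27 chaperone genes at that level 19 were lowest in culture 3 (70.4%). Hspa8, the constitutive member of the Hsp70 family, had 1208, 1126 and 1062 FPKM. The Hsp90 genes Hsp90ab1 and Hsp90aa1 had 711, 687 and 598 and 363, 340 and 302 FPKM, with culture 3 lowest in all 3 genes. Of 29 early response genes 16 were lowest in culture 3 (55.2%) and 19 were highest in culture 2 (65.5%, beside 26.1% of all genes). Among 8 genes of the IL-1 list 5 were lowest in culture 3, and among 7 chemokines 4. Ribosomal protein genes showed another order: 50 of 79 were lowest in culture 1 (63.3%, beside 38.8% of all genes). Of 9 eosinophil markers at 10 FPKM or more 7 were highest in culture 3, the exceptions being Ccl3 and Il1rn. The differences behind these orders were small. Of the 37 list shares, 32 had a CV under 5%, 4 had 5% to 10%, and only the chemokines had more, 11.7%.

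The genes with the smallest spread were of moderate level. Brms1, a subunit of a histone deacetylase complex, was listed at 37.4 FPKM in all cultures, a CV of 0.0796%, and Cnpy3, a chaperone of Toll-like receptors, at 89.2, 89.3 and 89.1 FPKM. Degs1, a desaturase of ceramide synthesis, had 152 FPKM in all 3. Such values lie closer than counting would give: for Brms1 the counting CV was 2.87%. With 5203 genes and 3 cultures, the lowest values of a wide range of CVs are picked out here, and no stability beyond these cultures follows.

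Of the 15 genes with the largest spread, 8 were ribosomal protein genes with near-identical copies or genes listed at 0 once. Rpl34 was listed at 3.85, 482 and 388 FPKM and Rpl34-ps1, a pseudogene copy, at 632, 169 and 234 FPKM. Their sum was 635, 651 and 622 FPKM with a CV of 2.32%. Rps27 was listed at 752, 98.6 and 157 FPKM. Besides these, 9 genes at 5 FPKM or more in 2 cultures were listed at 0 in the other one. Arhgef1, a nucleotide exchange factor of leukocytes, was listed at 0 in culture 1 and at 208 and 207 FPKM in the others. Ankrd33b and Otud4 were listed at 0 in culture 2, Mbnl1, a splicing factor, at 0 in culture 3, and Ttpal at 0 in culture 1. The other 4, named after their values were seen, were Gspt1 (0 in culture 1), Etv3 and Zfp281 (culture 2) and Cep250 (culture 3). Their longest transcripts ran from 3442 to 7979 nt, and such a 0 is not taken as absence of the RNA. Some genes that cells in general use were listed near 0 in all cultures: Rpl38, Rpl26 and Ndufs5 had means of 0.000102, 0.000744 and 0.569 FPKM (picked after their values were seen). No level is given for them here.

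Leaving those genes aside, few genes differed much between cultures. Without Rpl34, Rpl34-ps1, Rps27 and the genes listed at 0 once, 19 genes at 10 FPKM or more were 1.5-fold or more apart and none was 2-fold apart, the largest ratio being 1.86. Among the 15 highest CVs were Mrpl22, a mitochondrial ribosomal protein, at 7.49, 10.96 and 13.9 FPKM, Rpph1, the RNA of RNase P, at 25.6, 23.5 and 13.9 FPKM, and Dctpp1, a nucleotide hydrolase, at 13.1, 22.1 and 19.7 FPKM. Ywhaz, a 14-3-3 adaptor, was the most abundant of the rest, at 71.0, 74.0 and 107 FPKM. Of 1277 genes at 10 FPKM or more with several listed transcripts, 1029 (80.6%) had the same highest transcript in all 3 cultures.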

How the data were processed

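RNA of 3 untreated cultures was sequenced from TruSeq Stranded mRNA libraries, per the labels' protocols. Cufflinks, TopHat, TopHat2, bcl2fastq 1.8.4 and the build mm10 are named, without order or settings, in the submitters' processing notes. The authors deposited FPKM per RefSeq transcript, with 30374 transcripts in each library, and a coverage signal per the file headers. Coverage divided by FPKM gave 0.939, 0.974 and 0.917 mapped gigabases. Coverage times length moved in steps of about 39 nt, taken as 1 read, so a gene of 2000 nt at 1 FPKM rested on 47.1 to 50.4 reads. These numbers are approximate, and the sources do not say how reads of several copies were divided.

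FPKM were summed per symbol with Python 3.11.15, pandas 2.3.3 and numpy 2.4.6 (plots with matplotlib 3.10.9). A share is a list's FPKM over that of all kept genes. The CV was checked on simulated data by its root mean square, not by its median. The rule for members, the 37 functional and 10 marker lists (1326 entries, 9 unmatched) and the choices were made with earlier results of these data known. Named genes were the 40 highest (passing over small RNAs, Rik clones and predicted genes), the 3 highest of each list, the 15 highest and 10 lowest CVs at 10 FPKM or more, and the markers, but some of them are not reported here. Alternatives changed the transcript sum, length minimum, scaling, filter, pseudocount and cultures.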

Additional observations from a re-analysis of the deposited data

Results flagged for a closer look

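Symbols whose longest transcript was under 300 nt were left out of the ranking, and they held 10.0%, 15.05% and 10.2% of all deposited FPKM (mean 11.7%). Entries named as microRNAs held 69.5%, 80.4% and 82.6% of that, and small nucleolar and Cajal body RNAs 28.6%, 18.04% and 14.5%. Mir3064 was listed at 8561, 8411 and 8941 FPKM, Mir142 at 4419, 3292 and 5455 FPKM, and Mir1935 at 4420, 7458 and 7173 FPKM. Mir3470a was listed at 20123 FPKM in culture 2, more than Ftl1 in that library, and at 0 in cultures 1 and 3. By the approximate length of 1 read, 83942 reads of culture 1, 119925 of culture 2 and 83672 of culture 3 lay behind all of these entries.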

How the results depend on the processing

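The number of genes at 1 FPKM or more moved by less than 1.5 times from 9959 in each alternative that was run. The share of the 10 highest genes, 11.2%, became 11.7% with the highest transcript of each symbol, 13.5% without a length minimum, 7.17% with a minimum of 1000 nt and 6.52% as a share of bases (FPKM times length). That of the 100 highest, 31.4%, became 34.5%, 25.9% and 21.98% under the last 3 of these. As a share of bases the upper 50% lay in 647 genes. The median CV, 5.07%, was 6.90% for genes at 1 FPKM or more and 12.4% for every gene above 0. Without 1 culture it was 3.65% to 4.70%. A median CV tends to be lower with fewer cultures at the same spread, so these last values are not comparable with 5.07%. The lowest correlation, 0.992, was 0.986 with a pseudocount of 0.1 and 0.996 over every kept gene. Without 1 culture only 1 pair is left. The values of 0.99181 to 0.99302 then repeat the pairwise correlations over slightly different genes and are no check of stability. The lowest correlation was 0.995 without the genes listed at 0 once and Rpl34, Rpl34-ps1 and Rps27, an alternative chosen after seeing the data. Of 37 list shares 11 moved by over 1.5 times as a share of bases, namely ribosomal proteins (7.23% to 2.33%), respiratory chain (1.66% to 0.601%), iron handling (4.84% to 2.70%), chemokines (1.61% to 0.648%), granule proteins (1.05% to 0.470%), Fc and complement receptors (0.463% to 0.223%), resistin-like and S100 proteins (1.25% to 0.335%), interferon-induced genes (0.615% to 0.223%), cytokine receptor chains (0.555% to 0.899%), cholesterol synthesis (0.121% to 0.189%) and sex-linked genes (0.00463% to 0.0387%). No list share or gene mean moved by more than its SD when a culture was left out. With 3 cultures such a move is not possible, so this says nothing about stability. No paired analysis was possible because only 1 group was described. Depth limits genes under about 1 FPKM, and genes with near-identical copies are limited by how reads were divided.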
